A study of Mus musculus with 8 samples.

Results

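The PRAME-like and oogenesin genes were examined in RNA from mouse 2-cell embryos. Members were taken by symbol: every gene of the deposited count table whose symbol begins with Pramel, Pramef or Oog followed by a number, pseudogene symbols ending in -ps aside. This gave 17 of the 55487 genes in the table, namely Oog1 to Oog4, Pramel1, Pramel3 to Pramel7, Pramef6, Pramef8, Pramef12, Pramef12os, Pramef17, Pramef20 and Pramef25. Of these, 16 are protein-coding in the GENCODE annotation. Pramef12os is an antisense transcript that lies inside the span of Pramef12 on the other strand, without exon overlap, and is a member by its symbol alone. A further 22 genes of the table carry other symbols (such as Gm10436 or C87977) but are named as Pramel genes by RefSeq. They are described separately below as relatives.

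The series asked how a knockdown of Polq, the gene of DNA polymerase theta, changes the transcriptome of the early embryo. Both groups received CasRx, a CRISPR nuclease directed to RNA by its guide, and the labels give the genotype as WT in the controls and as polq knockdown in the other group. The 4 control libraries came from zygotes injected with CasRx, and the 4 knockdown-labelled libraries from zygotes injected with CasRx and a guide RNA against Polq. Injection was 20 h after human chorionic gonadotropin, RNA was taken 10 h later, and each library is a pool of 5 embryos, described as a biological replicate. The labels name no guide RNA for the controls, and the single time point gives no earlier or later stage of the same embryos.

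PRAME-like proteins are built of leucine-rich repeats and resemble human PRAME, an antigen of melanoma and other tumours that is otherwise found mainly in the germ line. In mice the family has expanded into clusters of related genes, many of them active in oocytes, early embryos or testis. The oogenesins (Oog genes) were described as oocyte transcripts that persist into the first cleavage stages. Several PRAME-like proteins act as substrate receptors of CUL2-elongin ubiquitin ligases, and Pramel7 in this way directs degradation of the DNA methylation cofactor UHRF1 in the inner cell mass of the blastocyst.

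Of the 17 members, 13 lie on chromosome 4 in GRCm38, within 1.01 Mb from position 143394428 to 144408464, where 11 of the relatives also lie. Pramel6 (chr2:87506565-87510872, plus strand) and Pramel7 (chr2:87489087-87497093, minus strand) are neighbours on chromosome 2. Oog1 is on chromosome 12 (chr12:87602688-87608850, plus strand) and Pramel3 on the X chromosome (chrX:135302307-135312652, plus strand).

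The 4 oogenesin genes share a stretch of sequence shortly before their transcription starts, although Oog1 lies on another chromosome than the others. The sequences below show it, with Pramel6 as the member next closest to it. They are from RefSeq on GRCm38.p6, 5′ to 3′ on the gene's strand, and the capitals mark the shared block.
Oog1 (chr12:87602602-87602664, plus strand): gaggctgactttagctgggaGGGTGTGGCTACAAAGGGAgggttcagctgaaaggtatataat
Oog2 (chr4:144190630-144190708, plus strand): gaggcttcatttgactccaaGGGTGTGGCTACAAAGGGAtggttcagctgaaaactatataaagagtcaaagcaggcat
Oog3 (chr4:144162664-144162737, minus strand): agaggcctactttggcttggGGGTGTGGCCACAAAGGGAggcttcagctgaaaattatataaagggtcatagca
Oog4 (chr4:143450331-143450409, minus strand): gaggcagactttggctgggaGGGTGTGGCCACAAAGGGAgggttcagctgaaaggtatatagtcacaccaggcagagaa
Pramel6 (chr2:87506475-87506553, plus strand): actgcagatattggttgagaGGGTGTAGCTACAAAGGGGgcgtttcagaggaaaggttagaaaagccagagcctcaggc

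The block GGGTGTGGCNACAAAGGGA, 19 letters with 1 variable position, was derived from the windows of the 4 Oog genes after their sequences were seen. Windows of 300 bases, from 250 before to 50 after the start, were searched on both strands. The block was found in 8 of 32851 RefSeq windows (0.0244%). These are the 4 Oog genes, the relatives Gm13023, Gm13084 and C87977, and Gm2042, a close copy of Oog1. In the windows of the 4 Oog genes and of the 3 relatives, the letters TATATA begin 35 bases after the first base of the block. TATATA was likewise searched for after these sequences were seen. It was found before the start in 5 of the 15 members with a window and in 5.25% of all windows. Among the relatives it was found in 10 of the 16 with a window. These include Gm13103, C87499 and Gm13089, which differ from the block at 1 position and also have the spacing of 35 bases. Gm13078, Gm13083, A430089I19Rik and Gm7978 have TATATA without the block. The 5 members are the 4 Oog genes, from which the block was derived, and Pramef6, so these shares are not an independent comparison. Pramel6 differs from the block at 2 positions and has no TATATA before its start. The windows of Pramel7, Pramef17 and Pramef20 begin their transcript at a start codon, so that the search may not have covered their promoters. Pramef8 and Pramef12os had no window. These matches describe letters only.

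The control libraries held 33311679 to 43748629 counts. The totals were 4726160, 8627402 and 8100972 in knockdown-labelled replicates 1, 2 and 3 and 33650068 in replicate 4. Polq RNA did not separate the groups: its level was 39.3 ± 7.65 counts per 1000000 (CPM, with TMM scaling of the libraries; SD, n = 4) in the controls, against 31.5 ± 11.03 in knockdown-labelled embryos (log2 fold change −0.32, SE 0.34, exact permutation p = 0.343, 2-sided, smallest possible 0.0286). The 8 markers of the 2-cell embryo and the 8 of maternal oocyte RNA all passed the filter on low counts. Among them Mos, Zar1 and Tdpoz4 were low, with means of 4.35, 4.81 and 4.98 CPM over the 8 libraries. From the lists that follow, Tnfaip6, Prm2, Gata4, Gata6 and Hba-a1 passed the filter too. Of 12 cumulus and granulosa cell markers, 8 had no count in any library and the summed level of the list reached at most 24.6 CPM. Of 6 sperm markers, 5 had no count in any library, and Prm2 reached 7.34 CPM. Of 6 markers of later embryos, 3 had no count in any library, while Gata4 had counts in all 8, and the sum was 13.3 to 26.4 CPM in the controls, against 22.8 to 31.8 CPM in knockdown-labelled embryos. The part of these transcripts in the values below was not tested. Of 3 blood markers, 1 had no count, and the sum was 0.0229 to 16.2 CPM in the controls and 5.83 to 9.12 CPM in the knockdown-labelled libraries.

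All 17 members had a count in at least 1 library, and 15 or 16 of them in each library. Together they made up 0.364% to 0.551% of a library's counts. The summed level of the family was 3880, 4944, 5349 and 4642 CPM in control replicates 1 to 4 and 5164, 4699, 3997 and 3835 CPM in knockdown-labelled replicates 1 to 4. The means were 4704 ± 621 and 4424 ± 620 CPM (SD, n = 4), and the groups overlapped. Oog3 alone accounted for 83.9% to 89.9% of the family's counts. Without Oog3 the sum was 541 ± 62.2 CPM in the controls, against 553 ± 52.1 CPM in knockdown-labelled embryos. In pooled embryos, fewer cells that carry a transcript and less RNA per cell cannot be told apart, nor can RNA left from the oocyte and RNA made by the embryo.

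No member passed the test between the groups. With edgeR's quasi-likelihood test and Benjamini-Hochberg adjustment over all 13146 genes tested, 0 of the 16 tested members had an adjusted p under 0.05, beside 0.0% of all genes. Per-gene estimates below are from this fit, with the standard error (SE) and 95% interval. DESeq2 and limma-voom also called 0 members. DESeq2 called 20 genes elsewhere (0.154% of the genes with an adjusted p), and limma-voom called none. At an unadjusted p under 0.05 edgeR had 0 members, against 369 genes (2.81%) in all. No member had groups that did not overlap in CPM: 0 of 16 were higher in all knockdown-labelled libraries, against 1.44% of all genes tested, and 0 of 16 were lower, against 1.54% (2.98% in either direction). The fitted log2 fold change, knockdown-labelled minus control, was above 0 for 7 members and below 0 for 9. Its median was −0.026, beside −0.047 over all genes tested, of which 53.4% were below 0.

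**Figure D1:**
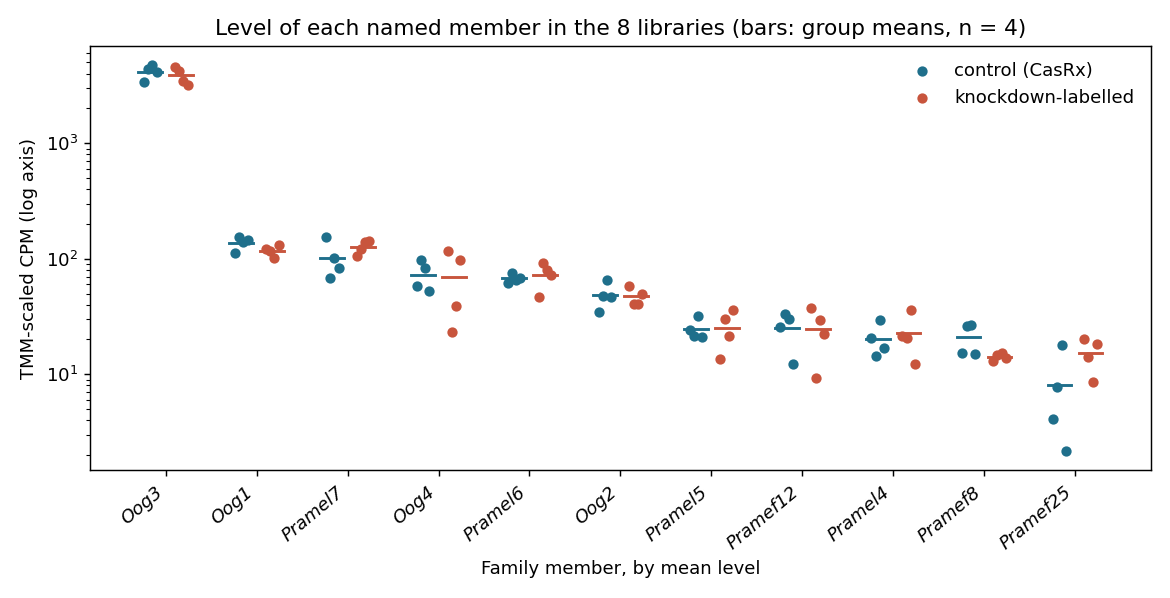
Level of the 11 members with a mean of at least 10 CPM in each of the 8 libraries (TMM-scaled CPM on a log axis; blue points, controls; red points, knockdown-labelled; bars, means of 4 libraries). Oog3 lies between 3217 and 4735 CPM, above all other members, and the points of the 2 groups overlap for each member shown.

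Oog3 (chr4:144157557-144162663, minus strand, 4 exonic regions), the most abundant oogenesin, was among the leading transcripts of these embryos. It was the 19th of the 13146 tested genes by mean CPM and the 23rd of the 12806 tested genes with a known length by CPM per kilobase of exon. Its level was 3363, 4379, 4735 and 4173 CPM in control replicates 1 to 4. In knockdown-labelled replicates 1 to 4 it was 4594, 4197, 3476 and 3217 CPM. Control replicate 1 and knockdown-labelled replicates 3 and 4 were the lowest, and the highest and lowest libraries of a group differed by 1.41-fold in the controls and 1.43-fold in the knockdown-labelled libraries. Its log2 fold change was −0.10 (SE 0.16, 95% interval −0.45 to 0.24). The interval corresponds to 73.1% to 118% of the control level, the narrowest of the family.

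Oog1, an oogenesin whose RNA is known from oocytes to 2-cell embryos, was at 111, 156, 138 and 145 CPM in the controls. The knockdown-labelled libraries held 121, 117, 101.5 and 131 CPM. The 3 highest values were controls and the lowest was knockdown-labelled replicate 3, but control replicate 1 lay within the knockdown-labelled range. The fitted log2 fold change of Oog1 was −0.23 (SE 0.19, 95% interval −0.64 to 0.19).

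The count of Oog1 is uncertain because most of its sequence is shared with a copy. Of all 75-base words in Oog1 transcripts, 82.8% also occur in at least 1 other gene, and 81.3% occur in Gm2042. The estimated counts of the pair were close to equal in each library, with 84.6 to 116 Gm2042 counts per 100 Oog1 counts. In control replicates 1 to 4 Gm2042 had 3333, 4989, 6271 and 6406 counts beside 3637, 4945, 6053 and 6238 for Oog1. The Oog1 and Gm2042 levels together were 276 ± 43.5 CPM in the controls, against 236 ± 24.9 CPM in knockdown-labelled embryos (SD, n = 4). Gm10436, RefSeq's Pramel51 and a chromosome 12 gene as well, holds 41.9% of the words of Oog1 and had 323 to 465 counts per 100 Oog1 counts.

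**Figure D2:**
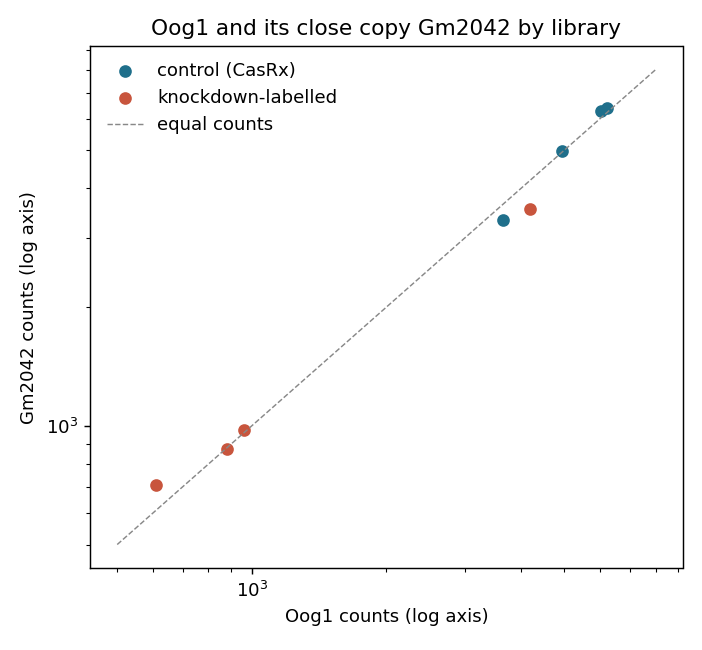
Estimated counts of Oog1 (horizontal) and of its copy Gm2042 (vertical) in each of the 8 libraries, both on log axes, with a dashed line at equal counts. All points lie near the line, between 84.6 and 116 Gm2042 counts per 100 Oog1 counts, and the 3 shallow knockdown-labelled libraries are at the lower left.

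Oog4 (chr4:143437164-143450324, minus strand) was at 57.8, 97.1, 83.5 and 52.7 CPM in the controls. Its knockdown-labelled values were 116, 23.3, 39.1 and 97.0 CPM, and these libraries held both the highest and the lowest of the 8 values, 4.96-fold apart. For Oog4 the log2 fold change was −0.082 (SE 0.47, 95% interval −1.14 to 0.97). None of its 75-base words occurs in another gene.

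Oog2 (chr4:144190719-144196934, plus strand) was at 34.8, 47.2, 65.5 and 46.8 CPM in the controls, against 58.1, 40.2, 40.9 and 49.2 CPM in knockdown-labelled embryos. The controls held the highest and the lowest value. Oog2 had a log2 fold change of −0.045 (SE 0.27, 95% interval −0.65 to 0.56). Oog2 shares 21.6% of its 75-base words with the relative Gm13084, which had 65.3 to 164 counts per 100 Oog2 counts. Per kilobase of exon, the level of Oog3 was 114 ± 17.2 times that of Oog2 (SD over the 8 libraries, range 86.9 to 139).

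Pramel7, the PRAME-like gene known for directing degradation of UHRF1, was at 154, 68.3, 102 and 83.9 CPM in the controls. The knockdown-labelled libraries held 106, 121, 139 and 143 CPM. All 4 exceeded control replicates 2 to 4, and control replicate 1 was the highest of all 8. Pramel7 had a log2 fold change of 0.32 (SE 0.27, 95% interval −0.27 to 0.91). Without control replicate 1 it was 0.59, with an unadjusted edgeR p of 0.0295 and an adjusted p of 0.958.

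Pramel6, its neighbour on chromosome 2, is likewise known from the inner cell mass. Its level was 62.2, 75.2, 64.9 and 67.6 CPM in the controls, against 46.2, 92.0, 80.2 and 72.3 CPM in knockdown-labelled embryos. The control range lay within the knockdown-labelled range. The log2 fold change was 0.11 (SE 0.25, 95% interval −0.44 to 0.66). Pramel6 and Pramel7 share no 75-base word with another gene.

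The other Pramel genes of the chromosome 4 cluster were lower. Pramel5 (chr4:144270633-144280488, minus strand) was at 24.2, 21.3, 32.1 and 21.0 CPM in the controls, against 13.5, 29.9, 21.5 and 35.8 CPM in knockdown-labelled embryos (log2 fold change 0.034, SE 0.37). Pramel4 (chr4:144059126-144069327, plus strand) was at 20.7, 14.3, 29.6 and 16.9 CPM in the controls, against 21.6, 20.5, 36.1 and 12.4 CPM in knockdown-labelled embryos (log2 fold change 0.15, SE 0.42). For both genes the knockdown-labelled libraries held the highest and the lowest value. Pramel4 shares 80.8% of its 75-base words with Gm13102, which had 0 to 23.7 counts per 100 Pramel4 counts. This ratio was unlike the even division between Oog1 and Gm2042 at a like degree of shared sequence.

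Among the Pramef genes, Pramef12 was the most abundant. Pramef12, RefSeq's Pramel13 (chr4:144391674-144408464, minus strand), is known from spermatogonial stem cells. It was at 25.9, 33.1, 29.8 and 12.1 CPM in the controls, against 37.1, 9.23, 29.4 and 22.4 CPM in knockdown-labelled embryos. Its log2 fold change was −0.044 (SE 0.48, 95% interval −1.11 to 1.02), and the lowest library of each group was well below its others. Pramef12os, from the other strand of this locus, had no count in 5 libraries, where a count of 0 allows up to 0.0698 to 0.347 CPM depending on depth. It had 0.984 CPM in control replicate 3, 1.19 in knockdown-labelled replicate 1 and 0.729 in knockdown-labelled replicate 2, and did not pass the filter. No source used here states whether the counting used strand, so that reads from introns of Pramef12 cannot be told apart from Pramef12os.

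Pramef8, RefSeq's Pramel12 (chr4:143412426-143421091, plus strand), had the smallest p of the family. Its level was 15.3, 26.2, 26.7 and 15.1 CPM in the controls. In the knockdown-labelled libraries it was 13.1, 14.6, 15.3 and 13.9 CPM. The controls fell into a higher and a lower pair, and the lower pair lay beside the highest of the 4 knockdown-labelled values, which spanned 1.17-fold. The log2 fold change was −0.55 (SE 0.38, 95% interval −1.39 to 0.29, edgeR unadjusted p of 0.174), or 68.2% of the control level with an interval of 38.2% to 122%.

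Pramef25, RefSeq's Pramel16 (chr4:143948580-143951016, minus strand), was the member just inside the 10 CPM needed for a description by library, with a mean of 11.6 CPM. Pramef6, RefSeq's Pramel11, was just outside it at 6.19 CPM. Pramef25 was at 4.13, 7.75, 18.0 and 2.16 CPM in the controls, against 20.2, 14.2, 8.55 and 18.1 CPM in knockdown-labelled embryos. The log2 fold change was 0.93 (SE 0.68, 95% interval −0.60 to 2.46). Control replicate 3 decided much of the control mean, which was 8.005 CPM with it and 4.68 CPM without it. Without that library the log2 fold change was 1.70, with an unadjusted edgeR p of 0.032 and an adjusted p of 0.999. Pramef25 shares 43.1% of its 75-base words with other genes.

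The 6 members under 10 CPM were Pramef6, Pramel3, Pramel1, Pramef17, Pramef20 and Pramef12os, with means of 0.363 to 6.19 CPM. Pramel1 and Pramel3 are known from testis, and Pramel1 had no count in 1 library, Pramel3 in 2 and Pramef20 in 3. The 5 of these members that were tested had log2 fold changes between −0.44 (Pramef17) and 1.73 (Pramel1), with standard errors of 1.01 to 1.98. The interval of Pramel1 ran from 0.268-fold to 41.2-fold, so that changes of a few fold in these genes lay within the intervals. The control libraries also varied, with Pramel1 at 2.60, 0, 1.85 and 0.489 CPM.

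**Figure D3:**
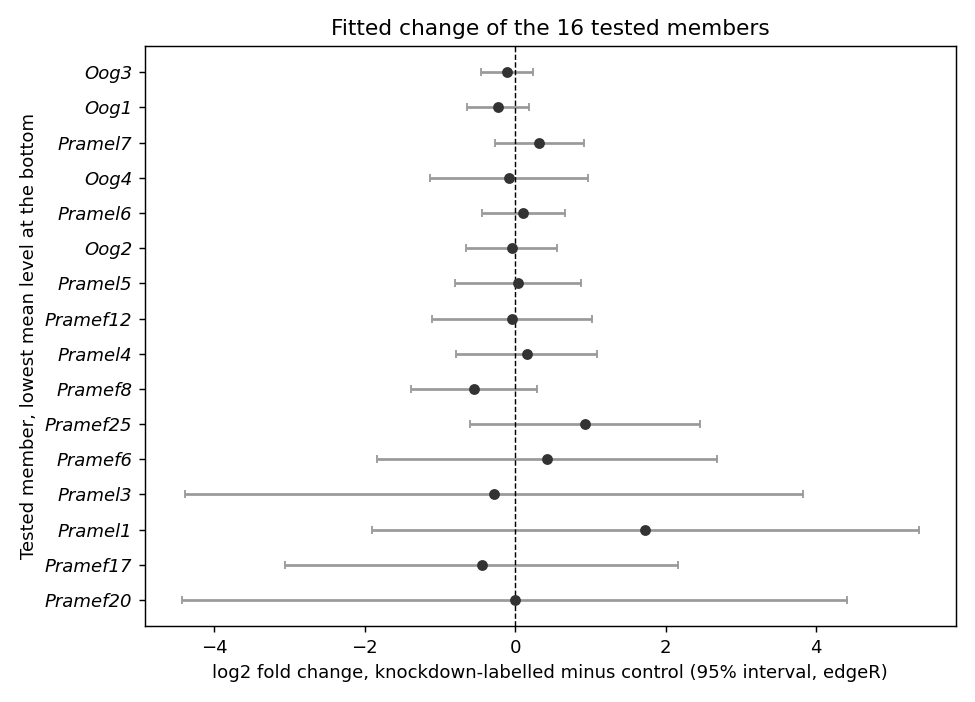
Fitted log2 fold change (knockdown-labelled minus control, horizontal) of the 16 tested members, ordered by mean level with Oog3 at the top; points are estimates and bars 95% intervals from edgeR. All 16 intervals include 0, and they widen from −0.45 to 0.24 for Oog3 to −4.43 to 4.42 for Pramef20 at the bottom.

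Per kilobase of exon, the mean levels over the 8 libraries ranked Oog3 at 2154 CPM per kilobase, Pramel7 at 53.7, Oog1 at 52.1, Oog4 at 35.7, Pramel6 at 33.6 and Oog2 at 19.3. Pramel5 at 10.8, Pramef12 at 9.67, Pramel4 at 8.64, Pramef25 at 6.91 and Pramef8 at 4.19 followed. The remaining 6 lay between 0.473 (Pramef12os) and 2.97 (Pramef6). In each of the 8 libraries Oog3 was 25.0 to 44.9 times as high per kilobase as the member that came next there. Only Oog3 was separate from its neighbour in this order, since the ranges over libraries overlapped for each of the other 15 neighbouring pairs. Oog2 was nevertheless above Pramel5 in 8 of 8 libraries, while Pramel7 was above Oog1 in only 5 of 8.

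Along the chromosome 4 cluster, high and low members lay side by side. Pramel1 at 0.958 CPM per kilobase, Pramef8 at 4.19 and Oog4 at 35.7 are consecutive at one end. Oog3 and Oog2, next to each other among the members, differed by the ratio given above. At the other end, Pramef20 at 0.727 and Pramef12 at 9.67 are also consecutive members.

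**Figure D4:**
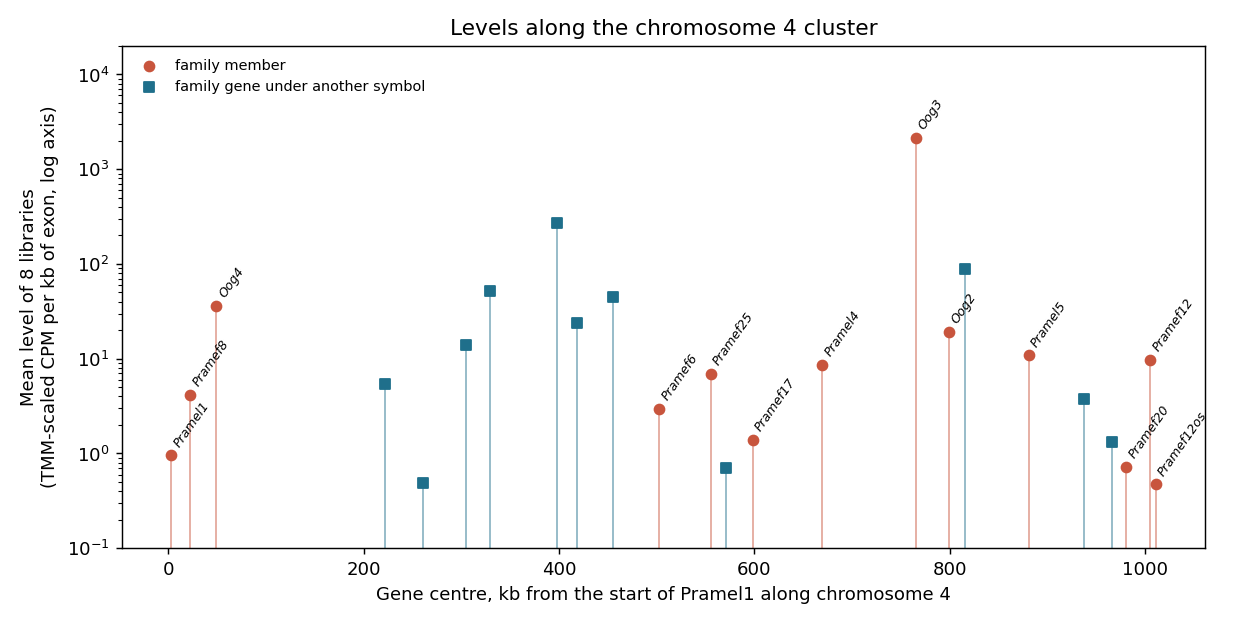
Mean level over the 8 libraries (TMM-scaled CPM per kilobase of exon, log axis) of genes along the chromosome 4 cluster, by distance of the gene's centre from the start of Pramel1 in kilobases; circles are the 13 members there and squares the 11 relatives under other symbols. Oog3 at 2154 CPM per kilobase stands above all others, and genes at under 10 lie among genes at over 100.

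The 22 relatives under other symbols lie on chromosomes 4, 5 and 12. Their summed level was 2012 ± 389 CPM in the controls, against 1647 ± 448 CPM in knockdown-labelled embryos (SD, n = 4), with overlapping groups. Of the 18 that were tested, 7 had a log2 fold change above 0 and 11 below 0, and the median was −0.17, beside 53.4% below 0 and a median of −0.047 over all genes tested. None passed the edgeR test (0.0% of all genes did), and 0 had an unadjusted p under 0.05, beside 2.81% of all genes. Gm10436, the most abundant, was at 584 ± 91.4 CPM in the controls, against 466 ± 84.6 CPM in knockdown-labelled embryos (log2 fold change −0.33, SE 0.18). Gm13084, which has the smallest p, was at 57.2, 76.3, 55.6 and 52.2 CPM in the controls, against 56.7, 42.4, 26.7 and 37.0 CPM in knockdown-labelled embryos. Only knockdown-labelled replicate 1 lay within the control range of Gm13084 (log2 fold change −0.57, SE 0.28, edgeR unadjusted p of 0.0738). With Oog2 and Gm13084 summed, the level was 109 ± 15.8 CPM in the controls, against 87.8 ± 19.7 CPM in knockdown-labelled embryos.

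The CUL2 ubiquitin ligase list holds the scaffold Cul2, its elongin and RING subunits and genes taken as alternative substrate receptors. Whether each of these genes acts with CUL2 was not tested. Of its 17 genes in the table, 15 were tested, and Prame and Zswim8, with no count in 5 libraries each, did not pass the filter. Of the tested genes 9 had a log2 fold change above 0 and 6 below 0, with a median of 0.083. Over all genes tested, 53.4% were below 0 and the median was −0.047. None of the 15 passed the edgeR test and 2 had an unadjusted p under 0.05, Klhdc10 and Appbp2, beside the 2.81% of all genes. Appbp2, a substrate receptor, was at 32.7 ± 7.75 CPM in the controls, against 62.4 ± 25.4 CPM in knockdown-labelled embryos, with overlapping groups (log2 fold change 0.93, SE 0.37). Eloc, the gene of elongin C, was the most abundant at 4851 ± 935 CPM in the controls, against 5140 ± 486 CPM in knockdown-labelled embryos (SD, n = 4). Klhdc10, another substrate receptor of this ligase, was at 14.6, 22.6, 28.9 and 23.1 CPM in the controls, against 0.992, 8.50, 0.578 and 8.87 CPM in knockdown-labelled embryos. These groups did not overlap, as for 2.98% of all genes (log2 fold change −2.22, SE 0.83, edgeR unadjusted p of 0.0243, not passing adjustment). The values under 1 CPM rest on 5 counts each in 2 of the shallow libraries. Fem1b, a receptor too, also had groups that did not overlap, at 24.3 ± 3.38 and 34.1 ± 4.79 CPM (log2 fold change 0.49, SE 0.28).

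Of the 11 genes of the UHRF1 pathway, which Pramel7 acts on, all were tested. The log2 fold change was above 0 for 4 and below 0 for 7, with a median of −0.092. Over all genes tested, 53.4% were below 0 and the median was −0.047. None of the 11 passed the edgeR test. Dppa3, an oocyte factor that keeps UHRF1 out of the nucleus, was the most abundant at 36671 ± 3300 CPM in the controls, against 35363 ± 6566 CPM in knockdown-labelled embryos (SD, n = 4). Tet1, which oxidises methylated cytosine, was at 19.4, 14.1, 24.6 and 23.3 CPM in the controls, against 33.7, 35.6, 28.7 and 33.5 CPM in knockdown-labelled embryos. Its groups did not overlap, as for 2.98% of all genes tested. The log2 fold change was 0.69 (SE 0.31, edgeR unadjusted p of 0.0470, not passing adjustment). Tet1 was the only 1 of the 11 genes with an unadjusted p under 0.05, beside 2.81% of all genes.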

How the data were processed

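RNA was sequenced in 8 libraries, 4 per group. The table the authors deposited holds expected counts of RSEM 1.2.28, after trimming with Trim Galore 0.6.10 and alignment with STAR 2.7.3a on GRCm38 (mm10), per the submitters' processing notes. RSEM divides reads that match several genes by estimation, so counts of near-identical members are uncertain. The annotation release was not given in the sources used here.

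Rounding to whole numbers altered 4.22% of values. Genes were filtered (edgeR's filterByExpr, minimum count 10, minimum total 15), TMM-scaled and compared with edgeR 4.0.16 (quasi-likelihood, robust, group only) in R 4.3.3, with Benjamini-Hochberg adjustment over all genes and a threshold of 0.05. The common biological coefficient of variation was 0.987, and no 2 libraries of a group agreed within sampling noise. The limit that a count of 0 allows is 3 counts and covers counting error only.

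Lengths and positions are from GENCODE vM21 (GRCm38), promoter windows from RefSeq (15 of 17 members), and 38 of 51 RefSeq family genes were matched to the table. Shared sequence was counted in 75-base words of GENCODE transcripts. Members with a mean of at least 10 CPM are described by library, and of each other list the most abundant gene and that with the smallest p. Members and lists were chosen with earlier results of these data known. Fem1b, Appbp2, Gm2042, Gm13102, Gm13023, C87977, Gm13103, C87499, Gm13089, Gm13078, Gm13083, A430089I19Rik and Gm7978 were named after their values or sequences were seen. Alternatives were other scalings, filters, DESeq2 1.42.0, limma-voom (limma 3.58.1), no robust hyperparameters, a replicate block, thinning to the smallest library, a fold threshold of 2 and leaving out libraries. Summing genes that share at least 40% of a member's 75-base words was added after seeing the data.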

Additional observations from a re-analysis of the deposited data

How the results depend on the processing

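No family member passed the threshold under any setting run, in either direction, and the smallest adjusted p among 313 member values was 0.742. Of these values, 276 kept the direction of the reported log2 fold change and 37 turned it, none of them past the threshold. The median over members stayed between −0.036 and 0.12, and the summed level of the family kept its direction. Under library totals alone Pramef12 was at 0.039, and after thinning at 0.020. Without a filter Pramel5 was at −0.0016, and with upper-quartile scaling Pramef20 at 0.0042. With limma-voom Pramel3 was at 1.39, Pramef20 at 0.56 and Pramel4 at −0.19. With knockdown-labelled replicate 4 alone against the controls, where the lone library is assumed to vary like the controls and the median of all genes was −0.36, Polq was at 0.073, Oog4 at 0.42, Oog2 at 0.028, Pramel3 at 0.51, Pramef20 at 1.79 and Pramel4 at −0.71. Leaving out each library in turn gave ranges of −0.017 to 0.27 for Pramel6, −0.31 to 0.24 for Pramef12, −0.19 to 0.24 for Pramel5, −0.45 to 0.22 for Oog4, −0.17 to 0.13 for Oog2, −0.70 to 0.68 for Pramel3, −2.68 to 0.61 for Pramef20, −0.17 to 0.38 for Pramel4 and −0.31 to 1.12 for Pramef6. In these cases the cause was not tested. Under the replicate block 0 members were called, the median over members was −0.031, Pramel5 was at −0.036 and Pramel3 at 1.09. Deviations from the group means correlated at −0.075 to 0.0085 in same-numbered libraries and at −0.063 to 0.087 in differently numbered ones. Such deviations sum to 0 within a group of 4, which ties these correlations to one another but does not hold each of them near 0. No same-numbered pair was above the highest of the differently numbered pairs. The labels do not say whether a replicate number marks a shared batch, and this was not tested further. Summing members by protein identity was not run, for want of the protein sequences. In the shallowest library 3 counts correspond to 0.595 CPM, and in the deepest to 0.0686 CPM.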

Other observations

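The genes whose promoter window holds the shared block of the Oog genes were compared in level with the rest of the family, after the block had been seen. Of the members and relatives together, 7 have the exact block and a mean level of 19.3 to 2154 CPM per kilobase of exon (median 52.1), over the 8 libraries. In 4 genes the block has 1 or 2 differences, and their levels were 14.0 to 49.7 (median 39.4). The 14 genes where it was not found were at 0 to 51.2 (median 4.94), and the 6 whose window begins its transcript at a start codon were at 0.727 to 53.7 (median 4.63). These groups overlap, and the 7 genes share sequence, so that they are not independent. The 7 include Oog1, Oog2, Oog3 and Oog4, from which the block was derived, so their place in this class was fixed in advance. The 2 relatives at 0, A430089I19Rik and Gm7978, share 95.6% and 100% of their 75-base words with other genes. Their counts are therefore uncertain, since RSEM divides such reads by estimation. The comparison is a description without a test.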
